A study of Mus musculus with 6 samples.

Results

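NFAT transcription factors and calcineurin, the phosphatase that activates them, were followed at the transcript level in activated CD4 T cells that lacked Foxo1. The group holds 10 genes, chosen by symbol: the NFAT genes Nfatc1, Nfatc2, Nfatc3 and Nfat5, the calcineurin catalytic subunit genes Ppp3ca, Ppp3cb and Ppp3cc, the regulatory subunit gene Ppp3r1, and the calcineurin regulator genes Rcan1 and Rcan3. These are 10 of the 13564 genes in the deposited normalized table and of the 55487 genes in the count files. All 10 passed the filter on low counts, which kept the 13691 genes that reached 10 counts in 3 or more libraries.

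RNA sequencing compared 3 Foxo1TKO with 3 Foxo1Ctrl libraries. Foxo1TKO mice carry floxed Foxo1 alleles and a CD4-Cre transgene. CD4-Cre is switched on in immature thymocytes, so the deletion is not limited to the CD4 T cells cultured here. Foxo1Ctrl mice carry the floxed alleles without Cre. The labels give the strain as C57BL/6J, and the methods describe young adult mice with a Foxp3-GFP reporter. Naive CD4 T cells from lymph nodes (50000 per culture in the labels, a larger number in the methods) were kept in culture for 4 days with anti-CD3 at 0.1 µg/ml and 250000 splenocytes of T cell-free, CD3e-deficient C57BL/6 mice. A later removal of the splenocytes is mentioned in neither source. The labels do not say that the libraries of a genotype came from separate mice or cultures, so p-values measure the spread between these libraries, which may be partly technical.

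When the T cell receptor is engaged, calcium enters the cytoplasm and binds calmodulin, which switches on calcineurin. Calcineurin is made of a catalytic A subunit, encoded by 1 of the Ppp3c genes, and a regulatory B subunit, encoded in most tissues by Ppp3r1. It removes phosphates from NFAT proteins, which then enter the nucleus and act on cytokine and activation genes until kinases return them to the cytoplasm. Nfat5 is the exception in the family, since it responds to osmotic stress and is not activated by calcineurin. Rcan proteins bind calcineurin and modulate its activity, and a short form of Rcan1 is itself a known NFAT target. Transcript levels, which are all that was measured, do not report phosphatase activity or NFAT localization.

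The libraries held between 14783853 and 19675407 counts. Foxo1 itself was at 82.2 ± 34.3 TMM-normalized counts (counts scaled by edgeR's TMM method to a common library size, mean ± SD, n = 3) in Foxo1TKO and 1804 ± 418 in Foxo1Ctrl, so each library matched its genotype label. Of the 8 T cell marker genes tested 0 passed in edgeR, DESeq2 or limma-voom, with 1 at an unadjusted edgeR p under 0.05, and their summed level was between 7840 and 8880 TPM (the RSEM abundance unit, a level per transcript length) in Foxo1TKO and between 8320 and 8660 TPM in Foxo1Ctrl. Of 7 B cell markers tested 4 were lower in Foxo1TKO, with a summed level of 7.55 to 11.3 TPM against 24.7 to 32.1 TPM, and of 5 plasma cell markers 4 were lower, at 111 to 160 against 181 to 244 TPM. Only 1 of 8 macrophage markers passed the filter, with C1qa and C1qc at 0 in every library, and the summed level of the list was 4.43 to 5.84 TPM in Foxo1TKO and 2.37 to 3.01 TPM in Foxo1Ctrl. Of 4 dendritic cell markers tested 1 was higher and 1 lower (156 to 251 against 229 to 608 TPM), and of 5 NK cell markers 1 was higher and 1 lower (94.7 to 194 against 170 to 238 TPM). Of 2 CD8 T cell markers, Cd8a was under the filter and the other did not pass the test (log2 fold change -0.61). Their summed level was 4.27 to 6.48 TPM in Foxo1TKO against 6.87 to 8.29 TPM in Foxo1Ctrl, without overlap. Of 6 proliferation markers 3 were higher in Foxo1TKO, with a summed level of 355 to 445 TPM against 204 to 270 TPM. The part of these lists in the results that follow was not tested. In bulk RNA, fewer cells of a type and less RNA per cell cannot be told apart.

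Transcripts of 2 calcineurin catalytic subunits and of Nfatc3 were lower in Foxo1TKO cells, and that of Nfatc1 was higher. Of the 10 genes, 4 were lower in Foxo1TKO (Ppp3ca, Ppp3cc, Nfatc3 and Rcan3), 1 was higher (Nfatc1) and 5 did not pass the test. Over all 13691 genes tested, 12.4% were called lower and 11.8% higher at the same threshold. The 4 lower genes (40.0% of the members) are above that background share of lower genes. The 1 higher gene of 10 is near the share of higher genes. The members, like the lists below, were chosen with earlier results of these data known. A difference from the background share is therefore a description, and enrichment was not tested. Without Foxo1TKO replicate 2, 2 members and 7.05% of all genes were called lower. The median log2 fold change of the members was -0.29, against 0.01 over all genes tested. The genotypes did not overlap for 7 of the 10 genes, compared with 42.7% of all genes. Calls here are an adjusted p under 0.05 in the quasi-likelihood test of edgeR (adjusted by Benjamini and Hochberg's method across every tested gene), and fold changes are Foxo1TKO against Foxo1Ctrl.

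**Figure D1:**
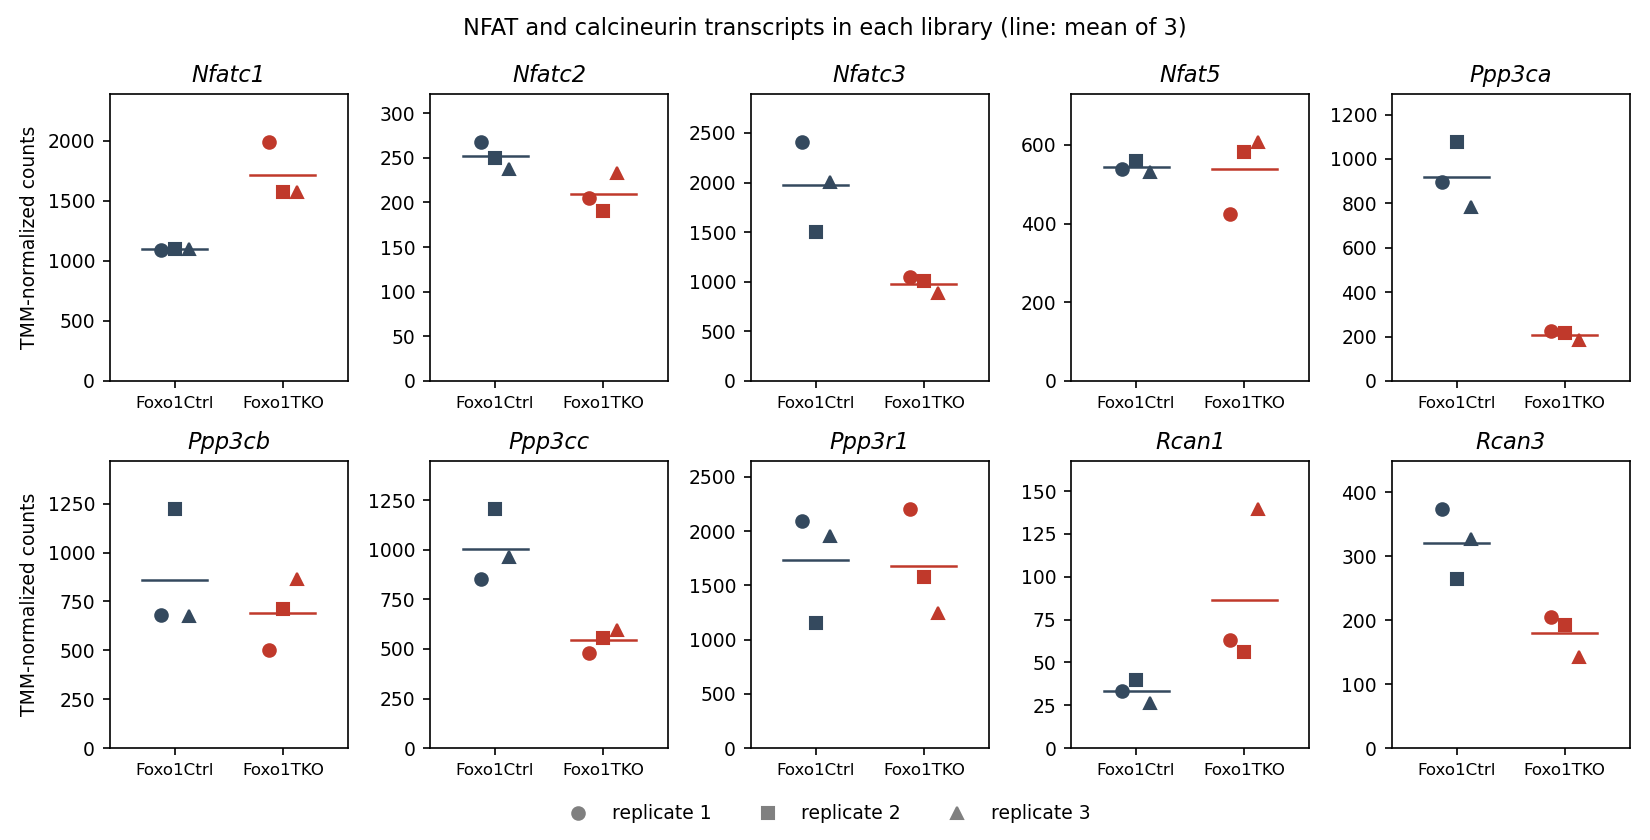
TMM-normalized counts (vertical axes, from 0, a separate scale for each gene) of the 10 genes in each library. Circles, squares and triangles are replicates 1, 2 and 3 and lines are means of 3 libraries. Foxo1TKO libraries lie below all Foxo1Ctrl libraries for Nfatc2, Nfatc3, Ppp3ca, Ppp3cc and Rcan3, and above them for Nfatc1 and Rcan1.

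Ppp3ca, which encodes the calcineurin Aα subunit (ENSMUSG00000028161, GRCm38 chromosome 3, 136670124 to 136937727, plus strand), had the largest log2 fold change of the 10 genes. Foxo1Ctrl libraries had 895, 1077 and 783 TMM-normalized counts and Foxo1TKO libraries 223, 214 and 186. Every Foxo1TKO library was thus far below the lowest control. The level was 4.40-fold lower in Foxo1TKO (log2 fold change -2.14, SE 0.19, 95% interval -2.58 to -1.70, edgeR adjusted p = 0.000299). The call held with any 1 library left out, with log2 fold changes from -2.25 to -2.00.

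Ppp3cc, which encodes the Aγ subunit (ENSMUSG00000022092, chromosome 14, 70217865 to 70289471, minus strand), was also lower. The controls had 850.1, 1205 and 961 TMM-normalized counts and the Foxo1TKO libraries 481, 555 and 597. The groups did not overlap, and the level was 1.85-fold lower in Foxo1TKO (log2 fold change -0.89, SE 0.19, edgeR adjusted p = 0.0122). Without Foxo1TKO replicate 2 the log2 fold change stayed at -0.89 and the edgeR adjusted p was 0.0619. An antisense gene, Gm49417, covers 3.05% of its exon bases and had at most 25 counts. The expected counts of Ppp3cc were not whole in 4 libraries, so some reads were shared with another gene.

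Ppp3cb, which encodes the Aβ subunit (ENSMUSG00000021816, chromosome 14, 20499364 to 20546573, minus strand), did not pass the test. Foxo1Ctrl libraries had 679.6, 1222 and 678 TMM-normalized counts and Foxo1TKO libraries 502, 712 and 866, and the groups overlapped. The log2 fold change was -0.31 (SE 0.30, 95% interval -1.0 to 0.37, edgeR adjusted p = 0.496), an interval that holds both lower and higher levels. Control replicate 2 was well above the other controls, and without it the log2 fold change was 0.03.

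The make-up of the catalytic subunit transcripts was compared next. On the TPM scale, the 3 catalytic genes summed to 68.5, 81.4 and 70.5 TPM in Foxo1Ctrl and to 37.6, 40.5 and 41.9 TPM in Foxo1TKO, without overlap. Ppp3ca made up 30.0, 26.6 and 23.9% of that sum in the controls and 12.7, 10.8 and 9.08% in Foxo1TKO. Its share was thus 16 percentage points lower in Foxo1TKO (10.9 ± 1.79% against 26.8 ± 3.02%, SD, n = 3, exact two-sided permutation p = 0.1). The Ppp3cb share was 14.5 points higher (43.1 ± 3.65% against 28.6 ± 2.73%, exact permutation p = 0.1), and the Ppp3cc share was 46.1 ± 1.90% against 44.6 ± 3.03% (exact permutation p = 0.4). With 3 libraries against 3, 0.1 is the smallest p this test can give, so no share can pass 0.05. Shares of a sum are not independent of each other.

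Ppp3r1, the regulatory B subunit gene (ENSMUSG00000033953, chromosome 11, 17159263 to 17200375, plus strand), had no detectable difference. The controls had 2091, 1154 and 1950.4 TMM-normalized counts and the Foxo1TKO libraries 2202, 1572 and 1247. The libraries of each genotype spread over a wide range and overlapped (log2 fold change -0.05, SE 0.28, 95% interval -0.70 to 0.60, edgeR adjusted p = 0.923). Ppp3r1 shares 14.3% of its exon bases with Wdr92, which had at most 1127 counts, on the same strand in GENCODE M21. The expected counts of Ppp3r1 were whole in all 6 libraries. Its level was 45.6 ± 17.3 TPM in Foxo1TKO and 45.3 ± 17.1 TPM in Foxo1Ctrl, the highest mean of the 10 genes in both genotypes.

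**Figure D2:**
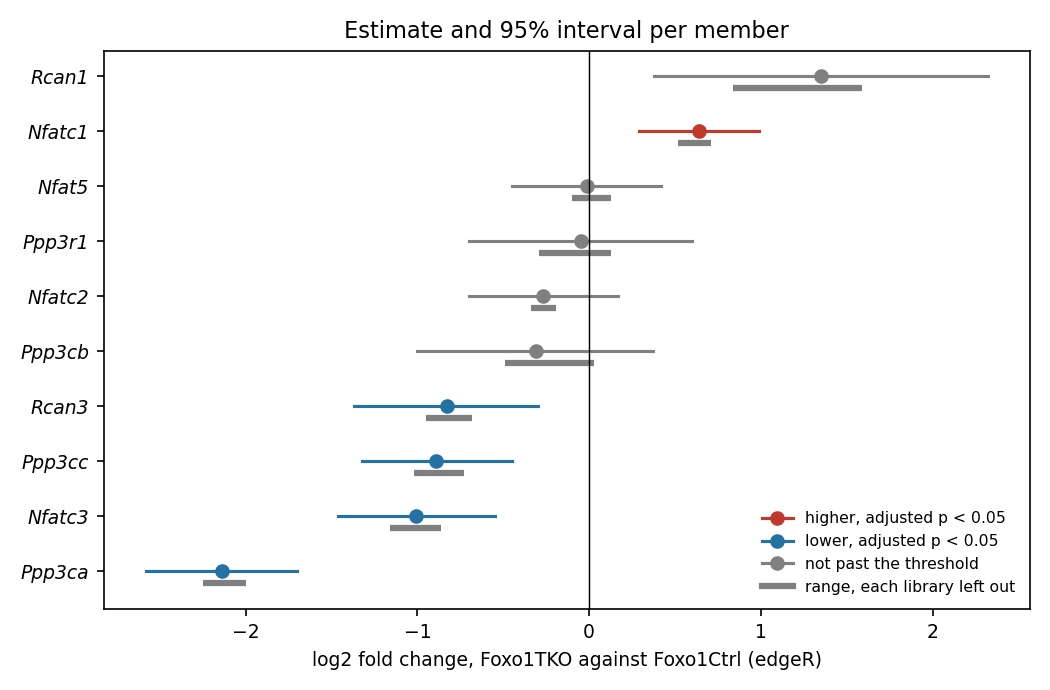
Log2 fold change (horizontal axis, Foxo1TKO against Foxo1Ctrl) of each gene, with its 95% interval (thin line) and the range of estimates when each library is left out in turn (thick grey line). Ppp3ca lies farthest from 0 at -2.14, and the ranges of Nfat5, Ppp3cb and Ppp3r1 cross 0.

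Among the NFAT genes, Nfatc3 was lower and Nfatc1 higher in Foxo1TKO. Nfatc3 (ENSMUSG00000031902, chromosome 8, 106058840 to 106130537, plus strand), an NFAT factor prominent in thymocytes and naive T cells, had 2411, 1503 and 2001 TMM-normalized counts in the controls and 1049.7, 1009.9 and 884 in Foxo1TKO. It was 2.01-fold lower (log2 fold change -1.01, SE 0.20, edgeR adjusted p = 0.00901), and the call held with each library left out. Esrp2, on the opposite strand, covers 1.87% of its exon bases and had at most 11 counts, and the expected counts of Nfatc3 were not whole in 5 libraries. Nfatc1 (ENSMUSG00000033016, chromosome 18, 80606205 to 80713071, minus strand), whose short form is induced by NFAT itself on activation, had 1093, 1099 and 1097 TMM-normalized counts in the controls and 1989.5, 1572 and 1569 in Foxo1TKO. The controls were almost identical in these counts and every Foxo1TKO library was higher, by 1.56-fold on average (log2 fold change 0.64, SE 0.15, edgeR adjusted p = 0.0192). Per length, the controls were at 20.91, 16.92 and 19.1 TPM. The log2 fold change was 0.54 with effective length offsets (edgeR adjusted p = 0.0357) and 0.54 on the deposited normalized values (limma adjusted p = 0.0367). The call was kept without Foxo1TKO replicate 3 and without Foxo1Ctrl replicate 2. The edgeR adjusted p was 0.0574 without Foxo1TKO replicate 1, 0.0572 without Foxo1TKO replicate 2, 0.0792 without Foxo1Ctrl replicate 1 and 0.0673 without Foxo1Ctrl replicate 3, with log2 fold changes of 0.52 to 0.71.

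Nfatc2 (ENSMUSG00000027544, chromosome 2, 168476410 to 168601657, minus strand), an NFAT factor present in resting T cells, had the lowest TPM of the NFAT genes. It had 268, 250.4 and 238 TMM-normalized counts in the controls and 205, 191 and 233 in Foxo1TKO. The groups did not overlap, but the log2 fold change of -0.27 (SE 0.19, 95% interval -0.70 to 0.17) did not pass the test (edgeR adjusted p = 0.351). Nfat5 (ENSMUSG00000003847, chromosome 8, 107293470 to 107379517, plus strand) had 538, 560.4 and 531 TMM-normalized counts in the controls and 424, 582 and 608 in Foxo1TKO. Its groups overlapped and its log2 fold change was -0.01 (SE 0.19, 95% interval -0.45 to 0.42, edgeR adjusted p = 0.969).

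The summed TPM of Nfatc1, Nfatc2 and Nfatc3 overlapped between the genotypes, at 44.6 ± 7.03 TPM in Foxo1TKO and 47.9 ± 10.6 TPM in Foxo1Ctrl. Within that sum, Nfatc1 made up 66.2, 61.0 and 66.1% in Foxo1TKO and 36.9, 46.8 and 37.6% in Foxo1Ctrl. Nfatc1 was thus the majority transcript in every Foxo1TKO library and in no control. The mean share was 24.0 points higher in Foxo1TKO (64.4 ± 2.99% against 40.4 ± 5.53%, SD, n = 3, exact two-sided permutation p = 0.1). The Nfatc3 share was 52.4 ± 6.15% in Foxo1Ctrl and 29.0 ± 3.19% in Foxo1TKO (exact permutation p = 0.1), and the Nfatc2 share 7.20 ± 0.617% and 6.57 ± 0.847% (exact permutation p = 0.4).

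**Figure D3:**
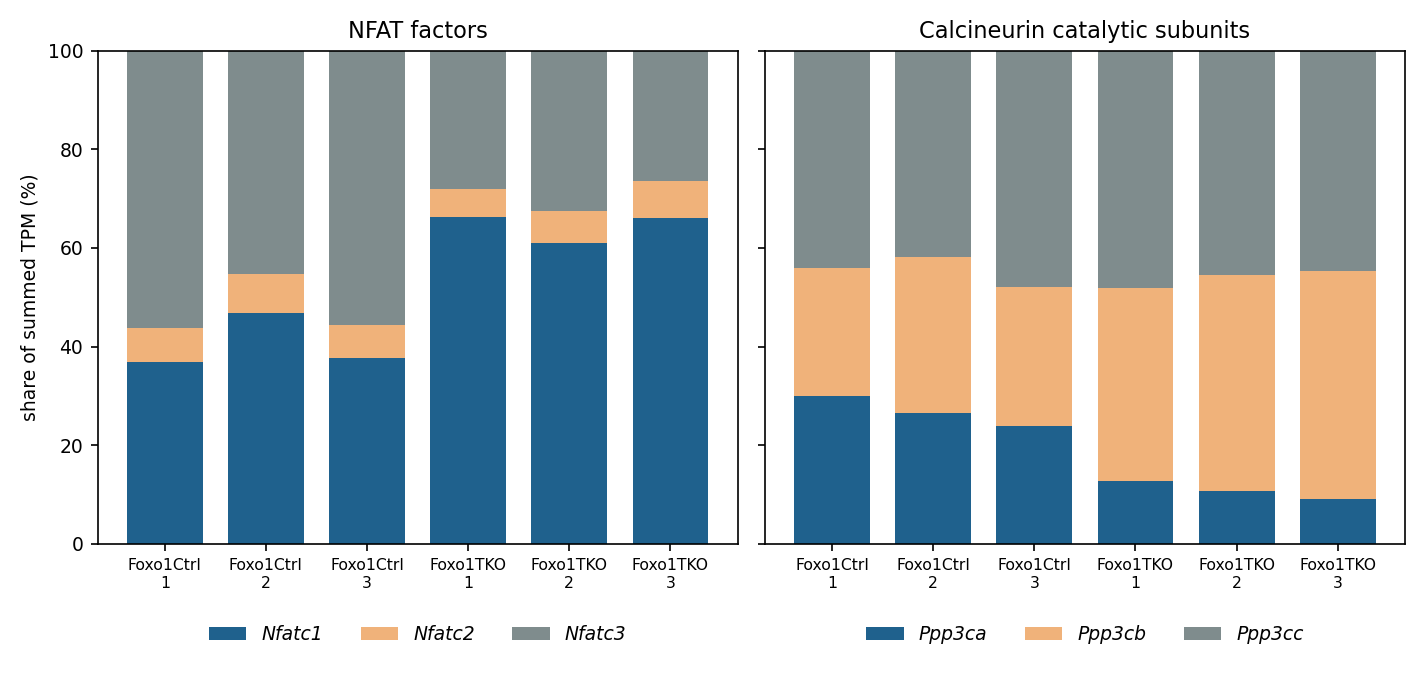
Share of summed TPM (vertical axis, percent) of Nfatc1, Nfatc2 and Nfatc3 (left) and of Ppp3ca, Ppp3cb and Ppp3cc (right), one stacked bar for each library. The Nfatc1 share is 61.0 to 66.2% in Foxo1TKO and 36.9 to 46.8% in Foxo1Ctrl, and the Ppp3ca share 9.08 to 12.7% against 23.9 to 30.0%.

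Of the 2 calcineurin regulators, Rcan3 was lower and Rcan1 did not pass the test. Rcan3 (ENSMUSG00000059713, chromosome 4, 135412308 to 135433853, minus strand) had 374, 264 and 327 TMM-normalized counts in the controls and 205, 192 and 143 in Foxo1TKO, with no overlap. It was 1.78-fold lower (log2 fold change -0.83, SE 0.23, edgeR adjusted p = 0.0338). The edgeR adjusted p was 0.105 without Foxo1TKO replicate 2, 0.103 without Foxo1TKO replicate 3, 0.115 without Foxo1Ctrl replicate 1 and 0.0948 without Foxo1Ctrl replicate 3, with log2 fold changes of -0.68 to -0.95 over all libraries left out.

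Rcan1 (ENSMUSG00000022951, chromosome 16, 92391953 to 92470867, minus strand) had 33.4, 40.0 and 26.2 TMM-normalized counts in the controls and 63.4, 56.2 and 139.5 in Foxo1TKO. Every Foxo1TKO library was above every control, but Foxo1TKO replicate 3 was well above the other two. The log2 fold change was 1.35 (SE 0.42, 95% interval 0.38 to 2.32, edgeR adjusted p = 0.0506), and 0.84 without that library. DESeq2 gave an adjusted p of 0.0163 and edgeR with no filter on low counts 0.0318. At these counts, the lowest of the 10 genes, the size of the difference was not well determined.

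Levels per transcript length ordered the genes differently in the genotypes. In Foxo1TKO the highest means were Ppp3r1 at 45.6, Nfatc1 at 28.8, Ppp3cc at 18.4 and Ppp3cb at 17.3 TPM, and the lowest were Ppp3ca at 4.32, Nfatc2 at 2.89 and Rcan1 at 2.67 TPM. In Foxo1Ctrl they were Ppp3r1 at 45.3, Ppp3cc at 32.7, Nfatc3 at 25.5 and Ppp3cb at 21.1 TPM, and the lowest were Nfat5 at 5.91, Nfatc2 at 3.41 and Rcan1 at 1.03 TPM. In the controls, all neighbours in the order from Ppp3r1 down to Rcan3 overlapped in their library values. In Foxo1TKO, Nfatc1 lay clear of Ppp3cc, Nfatc3 of Rcan3, Nfat5 of Ppp3ca and Ppp3ca of Nfatc2, while the other neighbours overlapped.

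Nfatc1 and Rcan1 are known to use alternative starts whose transcripts differ in length. The mean transcript length of a gene, weighted by the abundance RSEM assigned to each transcript, was therefore compared. For Nfatc1 it was 4144 ± 241 bases in Foxo1TKO and 3884 ± 170 bases in Foxo1Ctrl (exact two-sided permutation p = 0.2). For Rcan1 it was 2274 ± 24.1 against 2215 ± 44.1 bases (exact permutation p = 0.2). The libraries overlapped for these and for the other 8 genes. For Nfatc1 the values were 4339, 4219 and 3875 bases in Foxo1TKO and 3736, 3845 and 4070 in Foxo1Ctrl. With 3 libraries against 3 this test cannot give a p under 0.1, so it cannot decide whether the mix of transcripts changed.

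Promoter sequences, 250 bases upstream of an annotated start from RefSeq on GRCm38.p6, were found for 7 of the 10 genes in 10 entries. None was found for Nfatc1, Ppp3ca or Ppp3cc. The Foxo-type motif GTAAACA, searched on both strands, was in 2 entries and is in 3.17% of 32851 promoters of this length. Both entries belong to NFAT genes, Nfatc2 and Nfatc3, each of which has a second entry without this motif. In the first Nfatc2 entry (chr2:168601658-168601907, minus strand) the match starts 185 bases upstream. In the first Nfatc3 entry (chr8:106058568-106058817, plus strand) it starts 168 bases upstream. The sequences are shown 5′ to 3′ with the match in capitals.
Nfatc2 promoter: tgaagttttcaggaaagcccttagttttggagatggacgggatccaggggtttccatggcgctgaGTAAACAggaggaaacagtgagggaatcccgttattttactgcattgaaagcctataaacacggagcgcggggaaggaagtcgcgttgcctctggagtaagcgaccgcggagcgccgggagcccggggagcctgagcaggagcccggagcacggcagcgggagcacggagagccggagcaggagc
Nfatc3 promoter: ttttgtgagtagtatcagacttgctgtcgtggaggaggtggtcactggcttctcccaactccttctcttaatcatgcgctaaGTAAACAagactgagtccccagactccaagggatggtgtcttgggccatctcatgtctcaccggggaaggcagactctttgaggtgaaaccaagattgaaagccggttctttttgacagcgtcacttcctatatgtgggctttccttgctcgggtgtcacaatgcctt
Nfatc3 was 2.01-fold lower in Foxo1TKO and Nfatc2 did not pass the test. A link between the match and the levels was not tested. The NFAT core GGAAA is short and is in 55.6% of promoters on either strand and in 7 of the 10 entries of these genes, with 3 matches each in the first entries of Nfatc2 and Ppp3cb. The downstream Rcan1 start, shown because Rcan1 is a known NFAT target (chr16:92400079-92400328, minus strand) also holds 3 matches, 227, 193 and 163 bases upstream, in capitals as they read on this strand (GGAAA or TTTCC), and the upstream Rcan1 start holds none.
Rcan1 downstream promoter: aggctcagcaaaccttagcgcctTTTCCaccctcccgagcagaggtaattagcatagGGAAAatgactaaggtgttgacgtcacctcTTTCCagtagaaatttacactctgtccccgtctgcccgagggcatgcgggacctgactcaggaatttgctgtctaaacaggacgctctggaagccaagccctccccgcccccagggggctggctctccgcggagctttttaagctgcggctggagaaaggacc
A match is a description of the letters and not a binding site.

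The genes around calcineurin and NFAT were examined in 5 lists of 59 genes, of which 52 passed the filter. Of these 11 were higher in Foxo1TKO (21.2%), 15 were lower (28.8%) and 26 did not pass the test, against 11.8% higher and 12.4% lower over all genes tested, with a median log2 fold change of -0.01. The calcium entry and store genes held most of the lower genes and the NFAT target genes most of the higher ones.

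Of 18 calcium entry and store genes, 9 were lower in Foxo1TKO (50.0%), 3 were higher (16.7%) and 6 did not pass the test, with a median log2 fold change of -0.69. Atp2b4, a plasma membrane calcium pump, had the largest fall, with 612, 596 and 464 TMM-normalized counts in Foxo1Ctrl and 60.0, 61.4 and 44.0 in Foxo1TKO (9.91-fold lower, log2 fold change -3.31, edgeR adjusted p = 0.000122). The log2 fold change was smaller, at -2.54, both with effective length offsets and on the deposited normalized values, and per length Atp2b4 was at 1.28 ± 0.41 TPM against 7.09 ± 0.68 TPM. The 3 store-operated channel genes differed from each other. Orai1 was 3.75-fold higher (186, 245 and 185 against 51.3, 35.5 and 74.6 counts, edgeR adjusted p = 0.00449), and Orai2 was 3.11-fold lower (180, 132 and 116 against 473, 453 and 409.8 counts, edgeR adjusted p = 0.00185). Orai3 did not pass the test (404, 322 and 177 against 395, 149.8 and 385 counts, log2 fold change -0.04, edgeR adjusted p = 0.957). Mcu, the mitochondrial calcium uniporter, was 2.53-fold higher (edgeR adjusted p = 0.00484) and Atp2a2, a pump that refills the endoplasmic reticulum, was 1.55-fold higher (edgeR adjusted p = 0.0329). Atp2a2 lost its call with no filter on low counts (edgeR adjusted p = 0.0549) and in the fits that left out a library, except that without Foxo1Ctrl replicate 2. Itpr3, a calcium release channel, was 2.30-fold lower (edgeR adjusted p = 0.0137, and 0.0723 without Foxo1TKO replicate 2 and 0.0529 without Foxo1Ctrl replicate 1). The sensors that open Orai channels, Stim1 and Stim2, and Orai3 are named here after their values were seen. Stim1 was 2.03-fold lower (edgeR adjusted p = 0.0388), a call that ended with effective length offsets (adjusted p = 0.0659), on the deposited values (0.0599) and with a library left out, except without Foxo1TKO replicate 1 or Foxo1Ctrl replicate 2. Stim2 had 1531, 3902 and 4185 counts in Foxo1TKO against 982, 1115 and 2394, with overlap, and did not pass the test (log2 fold change 1.10, edgeR adjusted p = 0.119). It was called higher by DESeq2 (adjusted p = 0.0455), edgeR with no filter (0.0406) and edgeR with the replicate number as a block (0.0214). EdgeR also called it higher without Foxo1TKO replicate 1 (0.034) or without Foxo1Ctrl replicate 3 (0.0497).

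Of the 3 calmodulin genes only Calm3 passed, 1.57-fold higher (edgeR adjusted p = 0.0374), a call that ended with upper quartile scaling (adjusted p = 0.0518), effective length offsets (0.104) and the deposited values (0.0843). With a library left out it was kept only without Foxo1Ctrl replicate 2. The calmodulin genes encode the same protein, and the expected counts of Calm3 were whole in all 6 libraries. Among 6 other NFAT, calcineurin and binding partner genes tested, Chp1, a calcineurin B homologue, was 1.51-fold lower (edgeR adjusted p = 0.0250, and 0.0504 with no filter on low counts) and the other 5 did not pass. With a library left out, the Chp1 call was kept only without Foxo1TKO replicate 1 or Foxo1Ctrl replicate 2. Expected counts of Chp1 and of Dyrk2 were not whole in 5 of 6 libraries, so some of their reads were shared with other genes. Nfatc4, the B subunit gene Ppp3r2 and Rcan2 were at 0 in every library and Homer2 was under the filter. Of 11 genes for NFAT kinases and nuclear export, Dyrk2, a kinase that can phosphorylate NFAT, was 3.56-fold lower (163, 257 and 186 against 671, 662 and 829 counts, edgeR adjusted p = 0.00125). Xpo1, the exportin, was 1.52-fold higher (edgeR adjusted p = 0.0152, and 0.0758 without Foxo1TKO replicate 2 and 0.0790 without Foxo1Ctrl replicate 1), and 9 did not pass. The 1 gene in each direction is 9.09% of this list, under the share over all genes. Dyrk1b was under the filter.

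Of 14 known NFAT target genes tested, 6 were higher in Foxo1TKO (42.9%), 4 were lower (28.6%) and 4 did not pass. Pdcd1, which encodes the inhibitory receptor PD-1, had 6325, 3559 and 3296 TMM-normalized counts in Foxo1TKO and 162, 127 and 263 in Foxo1Ctrl (23.7-fold higher, edgeR adjusted p = 0.000227). Csf2, which encodes the cytokine GM-CSF, had 169, 161 and 214 counts in Foxo1TKO and 9.54, 29.7 and 13.6 in Foxo1Ctrl (9.81-fold higher, edgeR adjusted p = 0.00137). The control counts were low, and its log2 fold change ran from 2.99 to 3.85 with a library left out. Nr4a1, an early response gene of receptor signalling, had 9128, 2768 and 2183 counts against 738, 158 and 1384, with replicate 1 high in Foxo1TKO and the controls spread widely (6.16-fold higher, edgeR adjusted p = 0.0490). With a library left out its call was kept only without Foxo1Ctrl replicate 3 (log2 fold change 3.38), and without Foxo1TKO replicate 1 its log2 fold change was 1.71 instead of 2.62. Irf4, a factor induced by receptor strength, was 2.19-fold lower (edgeR adjusted p = 0.0271) and Cd40lg, the ligand for CD40 on B cells, 1.70-fold lower (edgeR adjusted p = 0.0231). With a library left out, the Irf4 call was kept only without Foxo1TKO replicate 2 or Foxo1Ctrl replicate 2, and the Cd40lg call only without Foxo1Ctrl replicate 2 or 3. The T cell cytokine genes Il2 and Il21 had low counts and larger falls, and are named here after their values were seen. Il2 had 47.7, 80.1 and 32.0 counts in Foxo1Ctrl and 5.92, 7.90 and 17.2 in Foxo1TKO (4.86-fold lower, edgeR adjusted p = 0.0160, and 0.0763 without Foxo1TKO replicate 2). Il21 had 38.2, 37.7 and 34.9 counts in Foxo1Ctrl and 0.845, 5.26 and 0 in Foxo1TKO. It is among the 4 genes called lower, but it passed the filter on low counts only through the controls, which set its direction. With any Foxo1Ctrl library left out, Il21 fell under the filter. Il3 was at 0 in every library and Il4 was under the filter. Tox, Egr3 and Tnf, also named after their values were seen, complete the 6 higher genes. They were 3.48-fold, 2.65-fold and 2.23-fold higher (edgeR adjusted p = 0.000671, 0.00757 and 0.0170). With a library left out, the Tox and Egr3 calls were kept in 6 of 6 fits and the Tnf call in 2 of 6. The target genes thus did not move in 1 direction.

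**Figure D4:**
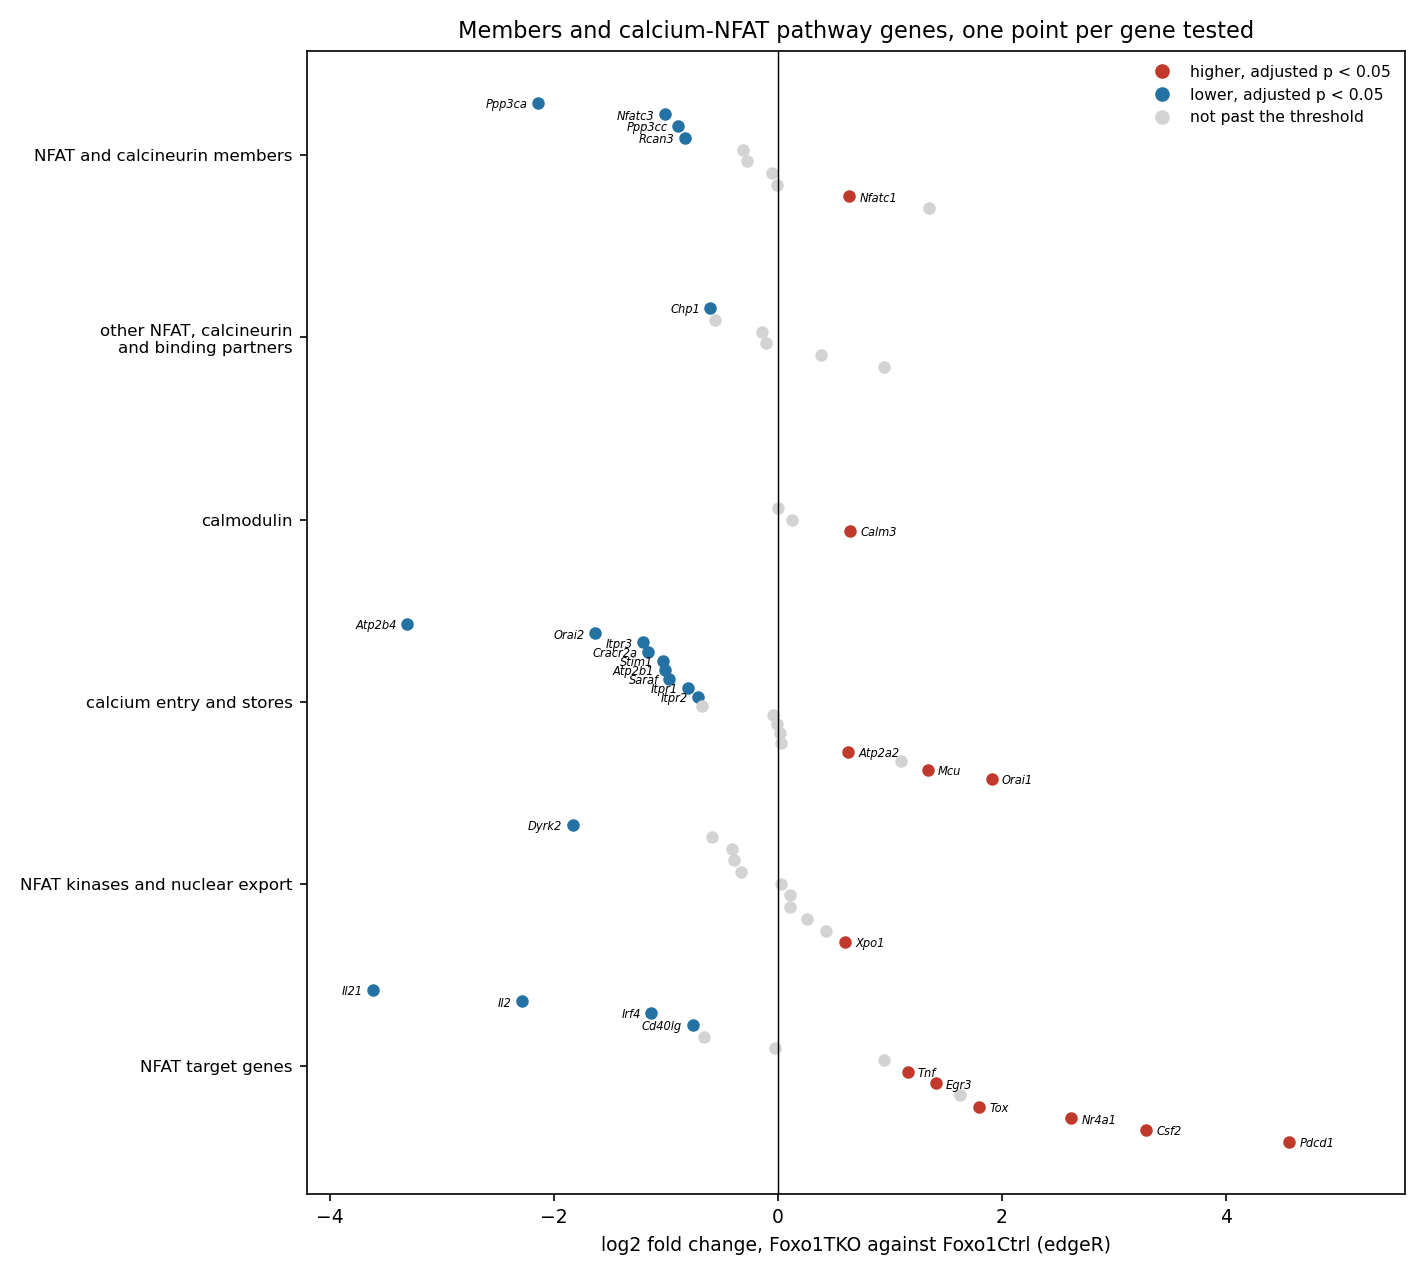
Log2 fold change (horizontal axis, Foxo1TKO against Foxo1Ctrl) of every member and pathway gene tested, grouped by list (vertical axis), with red for higher, blue for lower and grey for not past the threshold. Within the calcium entry and store genes 9 of 18 points are blue, and within the NFAT target genes 6 of 14 are red and 4 are blue.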

How the data were processed

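The authors deposited RSEM expected counts and TPM per gene, aligned with STAR 2.7.6a to GRCm38 and counted with RSEM 1.3.1 (per the labels), and a table of normalized signal per gene made with DESeq2. Strandedness of the counting is not given in the sources used here. The expected counts were rounded and tested with edgeR 4.0.16 (R 4.3.3; TMM, quasi-likelihood, prior count 1, genotype as the only term) for genes that reached 10 counts in 3 or more libraries. TMM-normalized counts are scaled to the mean effective library size, a choice that shifts every printed count by 1 constant and no fold change. Shares and lengths were compared by exact permutation tests (scipy 1.17.1). Positions are those of GENCODE M21.

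The members, lists and tests were chosen with earlier results of these data known. Named pathway genes passed the test with a mean of at least 50 counts, at most 3 per direction and list by size of change. Genes stated to be named after their values were seen are outside this rule. Alternatives were DESeq2 1.42.0, limma 3.58.1 (voom, and log2(signal + 1)), RLE and upper quartile scaling, length offsets, other filters, a fold threshold, a replicate block and leave-one-out. The scripts were tested on simulated data.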

Additional observations from a re-analysis of the deposited data

How the results depend on the processing

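Nfatc3 and Ppp3ca kept direction and call in all 15 alternative fits, and Ppp3cc in 14. The number of members called higher was 2 under DESeq2 and 2 with no filter on low counts, through Rcan1, and ranged from 0 to 1 when each library was left out. The number called lower ranged from 2 to 4 with a library left out. Pathway genes called higher ranged from 6 to 11 and those called lower from 7 to 14 in those fits, against 11 and 15 with all libraries. Over all genes, 657 were higher and 933 lower without Foxo1TKO replicate 2. The Ppp3ca share difference was -18.6 points from expected counts not scaled for length. Members with estimates near 0 changed sign: Nfat5 was at 0.12 with length offsets and 0.11 with the deposited signal, and ranged from -0.10 to 0.13 with a library left out, Ppp3cb from -0.49 to 0.03 and Ppp3r1 from -0.29 to 0.13. The causes were not tested. With the replicate number as a block, the members gave 1 higher and 4 lower, and 1710 and 1718 of all genes were called. Pairing was examined by correlating deviations of log2 levels from the genotype mean of each gene, not the levels themselves. Same-numbered libraries gave 0.462, 0.225 and -0.138, and not every library correlated best with its own number. The numbers were therefore not taken to pair the libraries, though this check cannot exclude pairing. The paper used paired t tests for PD1, TIGIT and cell division in such cultures.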

Other observations

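Among the members that did not pass the test, Ppp3cb and Ppp3r1 varied within each genotype. Ppp3cb was highest where Ppp3r1 was lowest in both genotypes: Foxo1Ctrl replicate 2 had 1222 TMM-normalized counts of Ppp3cb and 1154 of Ppp3r1, and Foxo1TKO replicate 3 had 866 and 1247. At the other end, Foxo1TKO replicate 1 had 502 and 2202. On the second principal component of all genes tested, with 17.8% of the variance, these libraries scored -51.6, -34.9 and 43.5. Foxo1Ctrl replicates 1 and 3 scored 28.4 and 20.0, and Foxo1TKO replicate 2 scored -5.37. Whether other members follow this spread was not tested. These values are a description over 6 libraries, with no test, and the labels give no batch to compare within.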
